A study of Mus musculus with 22 samples.

Results

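The nuclear genes of the mitochondrial respiratory chain were followed through 8 groups of whole mouse embryos in which transgenic Oct4 or Nanog was either left off or switched on with doxycycline. The members were taken by symbol from the table of gene counts: protein-coding genes whose symbol begins with Nduf, Uqcr, Cox4 to Cox8 or Atp5, together with Cyc1, Cycs and Sdha to Sdhd, without pseudogenes. The rule gave 93 gene models with 92 symbols, among 37680 gene models in the table and 22379 that are protein-coding. Of these, 41 belong to complex I, 4 to complex II, 9 to complex III, 20 to complex IV and 17 to complex V, the ATP synthase, and Cycs encodes cytochrome c. Cox4nb matched the rule by its letters only: it encodes a member of the endoplasmic reticulum membrane complex and no chain subunit. Of the 41 genes counted with complex I, 4 are assembly factors (Ndufaf1 to Ndufaf4). Atp5s and Atp5sl, counted with complex V, and Cox7a2l, counted with complex IV, carry names like subunits and are not established ones.

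All embryos were C57BL/6 and carried 2 transgenes, ROSA26tg/+ with either Oct4tg/+ (the Oct4 line) or Nanogtg/+ (the Nanog line), also in the control groups. Control mothers received no doxycycline. For the induced groups at embryonic day 7.5 (E7.5), doxycycline was injected into the peritoneum of the mother at E4.5 and then given in the drinking water. For those at E9.5 it was given in the drinking water from E6.5. No group received doxycycline without the transgenes, so drug and transgene cannot be told apart. A library was made from a pool of 8 to 12 whole embryos at E7.5 and of 3 at E9.5. Each Oct4 group had 3 libraries at each stage, and the Nanog groups had 2 control and 3 induced libraries at each stage, 22 in all. The pools are numbered in the labels, but which litters they came from is not given, so the tests measure the spread between pools.

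As background, the chain passes electrons from NADH through complex I, or from succinate through complex II, to ubiquinone, then through complex III and cytochrome c to complex IV, which reduces oxygen. Complexes I, III and IV pump protons, and complex V uses the gradient to make ATP. Most subunits are encoded in the nucleus and imported, and the rest of complexes I, III, IV and V is encoded by mitochondrial DNA, while complex II is wholly nuclear and also works in the TCA cycle. Several complex IV subunits have paralogs used in particular tissues, such as heart and skeletal muscle (Cox6a2, Cox7a1, Cox8b), testis (Cox6b2, Cox7b2, Cox8c) or lung and low oxygen (Cox4i2). Ndufa4l2 is a hypoxia-inducible paralog of Ndufa4, a protein once assigned to complex I and now to complex IV.

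Promoter sequences were read from the RefSeq promoter table for build GRCm38.p6, which matched 75 of the 92 symbols. The 300 bases around each start were searched on both strands for GCGCA followed by any base and GCGC, the core of the nuclear respiratory factor 1 (NRF1) motif, which was found in 18 of the 75 (24%) against 7.17% of 17491 protein-coding genes. CCGGAAG, the core of the GA-binding protein (GABP) motif, was found in 17 (22.7%) against 12.9%, and AAGATGGC, a YY1 motif, in 11 (14.7%) against 3.57%. None of the 3 motifs was found for the 4 tissue isoforms with an entry. The shares varied by complex, which was not tested: the NRF1 core was found in 22.2% of complex I genes and 37.5% of complex V genes. It was found in 2 of 3 complex II genes and 1 of 5 complex III genes. In complex IV it was found in 1 of 14 (7.14%), Cox6a1, and these 14 include the 4 tissue isoforms. The YY1 motif was found in 0 genes of complexes II, III and IV. A match describes the letters in that window only. The 5 stretches below, each of the 250 bases before the start, belong to members named in later results. These are 2 complex II genes that moved differently with stage, a ubiquitous complex IV subunit with NRF1-like and GABP-like matches, a muscle isoform, and Cox7b. They lie at chr13:74350241-74350490 on the minus strand (Sdha), chr9:50603850-50604099 minus (Sdhd), chr5:115348959-115349208 minus (Cox6a1), chr7:30183921-30184170 plus (Cox7a1) and chrX:106015450-106015699 plus (Cox7b). They are written 5′ to 3′ with the motif matches in capitals.
Sdha: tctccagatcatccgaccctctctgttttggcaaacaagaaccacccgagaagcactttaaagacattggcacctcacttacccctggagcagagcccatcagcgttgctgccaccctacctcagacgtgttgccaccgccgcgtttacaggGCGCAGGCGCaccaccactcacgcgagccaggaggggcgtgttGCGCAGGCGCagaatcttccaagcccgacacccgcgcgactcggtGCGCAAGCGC
Sdhd: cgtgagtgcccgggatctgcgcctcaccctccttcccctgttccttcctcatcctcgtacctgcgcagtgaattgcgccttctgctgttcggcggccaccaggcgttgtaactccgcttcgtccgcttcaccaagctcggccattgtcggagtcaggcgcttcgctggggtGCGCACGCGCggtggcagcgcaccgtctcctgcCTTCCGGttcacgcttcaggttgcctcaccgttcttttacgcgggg
Cox6a1: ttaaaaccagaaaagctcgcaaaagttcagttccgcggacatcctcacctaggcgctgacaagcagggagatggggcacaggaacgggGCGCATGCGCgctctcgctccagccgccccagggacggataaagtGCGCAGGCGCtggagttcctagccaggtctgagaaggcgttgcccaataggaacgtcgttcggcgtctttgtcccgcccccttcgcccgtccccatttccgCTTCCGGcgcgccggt
Cox7a1: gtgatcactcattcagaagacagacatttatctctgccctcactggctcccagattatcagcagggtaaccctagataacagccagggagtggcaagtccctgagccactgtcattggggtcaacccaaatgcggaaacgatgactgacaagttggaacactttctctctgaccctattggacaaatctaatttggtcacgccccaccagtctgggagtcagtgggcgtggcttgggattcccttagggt
Cox7b: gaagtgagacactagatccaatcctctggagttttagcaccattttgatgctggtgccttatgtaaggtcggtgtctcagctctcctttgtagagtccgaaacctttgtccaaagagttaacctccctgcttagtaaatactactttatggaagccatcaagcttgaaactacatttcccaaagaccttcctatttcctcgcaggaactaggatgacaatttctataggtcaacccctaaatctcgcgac
Sdha holds 3 NRF1-like matches, Sdhd 1 NRF1-like and 1 GABP-like match, and Cox6a1 2 NRF1-like and 1 GABP-like match. Cox7a1 and Cox7b hold none of the 3 motifs in this stretch.

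Library totals ran from 4716147 to 42323659 counts. Levels are given as CPM, each library scaled by its total count, and a count of 3, taken as the detection floor, stood for 0.0709 to 0.636 CPM. The gene of each transgene was higher in the induced libraries of its own line. Pou5f1 (Oct4) was at 203 to 242 CPM in Oct4 E7.5 controls and 477 to 606 in the induced libraries, and at 0.423 to 1.29 against 257 to 283 at E9.5. Nanog was at 17.2 to 22.8 CPM in Nanog E7.5 controls and 53.9 to 117 in the induced libraries, and at 2.06 to 2.35 against 348 to 354 at E9.5. In the Nanog line at E7.5, Pou5f1 was also higher in the induced libraries, at 460 to 581 CPM against 222 to 245. Counts from a transgene and from the embryo's own gene cannot be told apart. Gene models under 80 nucleotides split the libraries: they took 29.0 to 51.9 CPM in the 6 Oct4 E7.5 libraries and the 2 Nanog E7.5 controls, and 0.575 to 2.02 CPM in the other 14. Comparisons across that divide, which include both comparisons between stages and the Nanog induction at E7.5, are therefore also given after an adjustment for gene length. These are bulk libraries, so fewer cells of a type and less RNA per cell cannot be told apart.

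Together the members took 1.05% to 1.33% of a library's counts at E7.5 and 0.861% to 0.921% at E9.5. Levels compared between genes are given per kilobase of exon and scaled in each library to a common total (TPM), as the mean of the 4 control groups. On that scale the complex I genes had a median of 95.5, between Ndufb9 at 280.1 and Ndufb2 at 16.0, leaving aside a second gene model of Ndufb8 at 0.223. Complex II ran from Sdhd at 302 through Sdha at 163 and Sdhb at 99.9 to Sdhc at 64.6. Complex III had a median of 235, from Cyc1 (cytochrome c1) at 318 to Uqcrq, a small subunit, at 82.3. The complex IV median was 262, and the gene with the highest level of all members was Ndufa4 at 835, followed in this complex by Cox4i1 at 677 and Cox6b1 at 644. Its tissue isoforms were far below: Cox6b2 at 13.7, Cox7a1 at 11.6, Cox4i2 at 8.11, Ndufa4l2 at 5.32 and Cox6a2 at 3.41. Cox8b, Cox7b2 and Cox8c were at 0.131, 0.122 and 0.00959 and never exceeded 4 counts in a library. In complex V the median was 224, and Atp5b and Atp5a1, the catalytic beta and the alpha subunit, stood at 802 and 763. Atp5s was lowest there at 8.89. Cycs was at 123 and Cox4nb at 43.0. In 15 members, among them Atp5b, Atp5g1, Atp5j, Atp5l, Cox5a, Cox7c, Cycs and Ndufs1, the counts were not whole in any of the 22 libraries, so that reads matching other sequences were shared out and these values are uncertain. Cox7b was not whole in 1 library. Ndufa4l2 overlaps Shmt2 and Atp5d overlaps Dos on the opposite strand. Exon lengths are the union of all annotated exons, so levels of genes with long rare exons are understated.

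**Figure D1:**
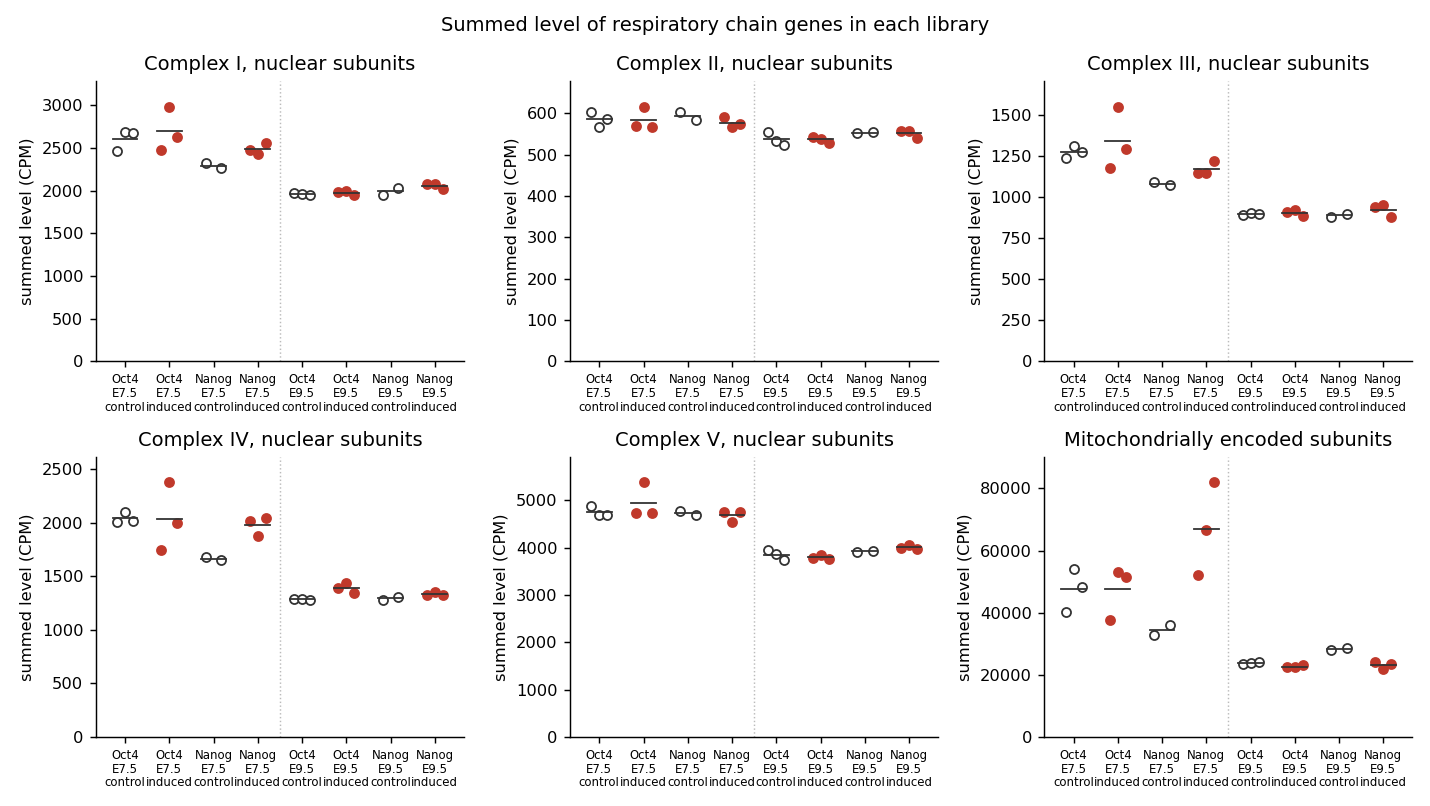
Summed level of the nuclear genes of each complex, and of the mitochondrially encoded subunits, in each of the 22 libraries (vertical axis, CPM). Open circles are control pools, filled circles induced pools and bars group means, and the sums for complexes I, III, IV and V were lower at E9.5 than at E7.5 while complex II moved least.

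Summed over its genes, complex IV stood at 2040 ± 51.4 CPM (SD, n = 3) in Oct4 E7.5 controls and 1284 ± 2.09 (n = 3) in Oct4 E9.5 controls. In the Nanog line the sums were 1663 ± 15.5 (n = 2) and 1292 ± 26.1 (n = 2). Complex II stood at 585 ± 18.2 and 536 ± 15.8 CPM in the Oct4 line and at 593 ± 13.4 and 553 ± 0.510 in the Nanog line. The plot of summed levels shows that the 2 lines differed more from each other at E7.5 than at E9.5 in complexes I, III and IV, a difference that was not tested. Induced pool 2 of the Oct4 line at E7.5 stood above all other libraries for complexes I, III, IV and V.

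The first comparison asks how the chain's transcripts differed between the untreated embryos of the 2 stages. In the Oct4 line 85 of 89 members tested fell from E7.5 to E9.5 and 1 rose, where 73.5% of all genes tested were called, 37.1% lower and 36.5% higher. In the Nanog line 67 of 89 fell and 2 rose, where 63.8% of all genes were called, 32% lower and 31.8% higher. Every adjusted p is from edgeR's quasi-likelihood test with Benjamini-Hochberg adjustment over all genes tested unless another tool is named, the threshold is 0.05, and ± after a log2 fold change is its standard error. The median log2 fold change of the members was -0.73 in the Oct4 line and -0.33 in the Nanog line, against -0.02 and 0.01 over all genes. Scaling by total counts alone moved the median of all genes to 0.18 and 0.07 and left 73 and 57 members lower. The 2 comparisons share no pool, but both cross the divide of libraries by short gene models. The 67 genes lower in the Nanog line were all among those lower in the Oct4 line and made up 78.8% of that list. With 85 of 89 members lower in the Oct4 line, an overlap of about this size was fixed in advance and adds no support. The genes higher in the Nanog line were Cox6a2 and Ndufaf2, an assembly factor of complex I, at 18.7 and 19.8 CPM at E7.5, then 24.4 and 29.2 (0.41 ± 0.12, adjusted p = 0.0106). The call of Ndufaf2 was lost without E7.5 control 2 or without E9.5 control 3, where its adjusted p reached 0.157. Whether the lines differed in their change was not tested.

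In the 4 complexes that hold mitochondrially encoded subunits, most nuclear genes fell. Complex III had 9 of 9 lower in the Oct4 line (median -0.92) and 8 of 9 in the Nanog line (-0.35). Complex I had 40 of 40 (-0.72) and 29 of 40 (-0.33), complex IV 15 of 17 (-0.88) and 14 of 17 (-0.37), and complex V 17 of 17 (-0.64) and 13 of 17 (-0.36). The core subunits of complex I, which carry its flavin, iron-sulfur clusters or quinone site, had a median of -0.51 in the Oct4 line, with 7 of 7 lower, and the accessory subunits -0.72, with 29 of 29 lower. With the adjustment for gene length the counts were smaller. In the Oct4 line 29 of 40 were then lower in complex I (median -0.44), 7 of 9 in complex III (-0.47), 9 of 17 in complex IV with 1 higher (-0.36), and 14 of 17 in complex V (-0.42). In the Nanog line 15 of 40 were lower and 4 higher in complex I (-0.13), 5 of 9 lower in complex III (-0.15), 7 of 17 lower and 1 higher in complex IV (-0.06), and 9 of 17 lower and 2 higher in complex V (-0.19). Over all genes, 71.4% in the Oct4 line and 62% in the Nanog line were called in either direction with this adjustment. Their split by direction was not computed for that fit. Fewer than 1 in 2 genes of complexes I and IV were then lower in the Nanog line, where 32% of all genes were lower without the adjustment.

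In complex II, 2 of 4 genes fell in the Oct4 line and 1 of 4 in the Nanog line, and a difference from the other complexes was not tested. Its flavoprotein gene Sdha was at 249.6, 212 and 226 CPM in Oct4 E7.5 controls and at 239.9, 242 and 229 at E9.5. Its iron-sulfur subunit gene Sdhb was at 79.8, 73.3 and 82.5 CPM and then 101, 92.5 and 95.1. The membrane anchor gene Sdhd was at 189, 212 and 205 CPM and then 118, 115 and 116. The ranges of Sdha overlapped between the stages, those of Sdhb did not and were higher at E9.5, and those of Sdhd were far apart. Sdhd fell in both lines, with log2 fold changes of -0.99 ± 0.06 (adjusted p = 1.16e-07) in the Oct4 line and -0.50 ± 0.06 (adjusted p = 4.58e-06) in the Nanog line. Sdha was at -0.15 ± 0.06 (adjusted p = 0.0463) and -0.09 ± 0.06 (adjusted p = 0.178), and its call in the Oct4 line held in 1 of 6 fits that each left out a library. Sdhb was not called in either line, at 0.09 ± 0.06 and 0.05 ± 0.07, nor was the other anchor gene Sdhc, at 0.02 ± 0.08 and -0.0053 ± 0.07. The complex II median was -0.07 in the Oct4 line and -0.05 in the Nanog line, and with total counts as the scale it turned positive in both. With the length adjustment 2 of 4 were lower and 1 higher in the Oct4 line (median -0.06). In the Nanog line 1 of 4 was then lower and 0 higher (-0.05), with a median close to that of complex IV (-0.06).

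The largest falls included small subunits of complexes III and IV. Uqcrq, in complex III (chromosome 11, 53241424 to 53244333, minus strand, build NCBIM37), was at 91.3, 107 and 101 CPM in Oct4 E7.5 controls and 46.6, 42.8 and 44.7 at E9.5. In the Nanog line it was at 66.8 and 64.8 CPM at E7.5, then 29.2 and 31.7. The stages did not overlap in either line, and the fold changes were -1.36 ± 0.08 (adjusted p = 5.45e-08) and -1.17 ± 0.08 (adjusted p = 3.5e-08). Uqcr10, of the same complex, changed by -1.38 ± 0.07 and -0.90 ± 0.10. Cox7b of complex IV (chromosome X, 103211039 to 103217789, plus strand) was at 284, 289.6 and 227 CPM and then 88.4, 89.2 and 86.8 in the Oct4 line, a change of -1.79 ± 0.09 (adjusted p = 4.93e-08). In the Nanog line it changed by -0.77 ± 0.14 (adjusted p = 0.00641). The levels of Cox7b at E7.5 spread widely among the pools, while the E9.5 controls of both lines lay close together. Ndufa4l2 had the largest fold of the genes that fell, -1.91 ± 0.31 (adjusted p = 0.000182) and -2.22 ± 0.40 (adjusted p = 0.000279), at a level of 2.07 to 3.70 CPM in the E7.5 controls of both lines and 0.575 to 1.17 at E9.5.

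The other members that led a complex by size or by lowest p were Ndufb4, Ndufc2 and Ndufs7 in complex I, Cox7a2 and Cox7c in complex IV, and Atp5k, Atp5d and Atp5sl among the genes counted with complex V. Ndufb4 changed by -1.40 ± 0.14 in the Oct4 line and -0.67 ± 0.20 in the Nanog line, Ndufc2 by -0.96 ± 0.07 and -0.24 ± 0.08, and Ndufs7, a core iron-sulfur subunit, by -0.77 ± 0.06 and -0.97 ± 0.08. Cox7a2 changed by -1.13 ± 0.06 and -0.37 ± 0.07, Cox7c by -0.94 ± 0.06 and -0.78 ± 0.07, and Cox7a1 by -0.99 ± 0.24 and -1.02 ± 0.41. Atp5k, a small subunit of the membrane part, changed by -1.25 ± 0.06 and -0.53 ± 0.10, Atp5d, the delta subunit, by -0.63 ± 0.06 and -0.70 ± 0.07, and Atp5sl by -0.82 ± 0.09 and -1.02 ± 0.12. All 9 were lower in both lines. The call of Cox7a1 in the Nanog line (adjusted p = 0.0424) was lost whichever library was left out. With the length adjustment Cox7a1 was called in neither line, and in the Nanog line Ndufb4, Cox7a2 and Atp5k were not called and Ndufc2 lay at 0.07 (adjusted p = 0.440).

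The core subunits spanned a wide range. Of the alpha and beta subunit genes of complex V, Atp5a1 changed by -0.35 ± 0.05 in the Oct4 line and -0.36 ± 0.05 in the Nanog line, and Atp5b by -0.32 ± 0.06 and -0.32 ± 0.05. In complex IV, Cox4i1 changed by -0.43 ± 0.06 and -0.28 ± 0.06, Cox5a by -0.98 ± 0.06 and -0.33 ± 0.06, and Cox5b by -0.67 ± 0.06 and -0.58 ± 0.06. In complex III, Uqcrfs1, the Rieske iron-sulfur protein, changed by -0.71 ± 0.06 and -0.19 ± 0.07 (adjusted p = 0.029), Cyc1 by -0.47 ± 0.06 and -0.40 ± 0.06, and Uqcrc1 by -0.19 ± 0.06 and -0.35 ± 0.06. In complex I, Ndufs1 changed by -0.51 ± 0.06 in the Oct4 line and was not called in the Nanog line (-0.06 ± 0.06, adjusted p = 0.397). Ndufv1 changed by -0.18 ± 0.05 and -0.33 ± 0.07, and Cycs by -1.04 ± 0.07 and -0.20 ± 0.06. With total counts as the scale, Ndufv1, Sdha and Uqcrc1 lay slightly above 0 in the Oct4 line. Without 1 or another library, the Nanog-line calls of Uqcrfs1 (kept in 1 of 4 such fits) and Cycs (3 of 4) and the Oct4-line call of Uqcrc1 (4 of 6) were lost. With the length adjustment Cox4i1 turned to 0.08 in the Oct4 line and 0.05 in the Nanog line, Uqcrc1 to 0.07 in the Oct4 line and Uqcrfs1 to 0.04 in the Nanog line, none of them called. Cyc1 (-0.10), Ndufv1 (-0.04) and Cox5b (-0.13) then also lost their call in the Oct4 line, and Cox5a (-0.01) in the Nanog line.

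**Figure D2:**
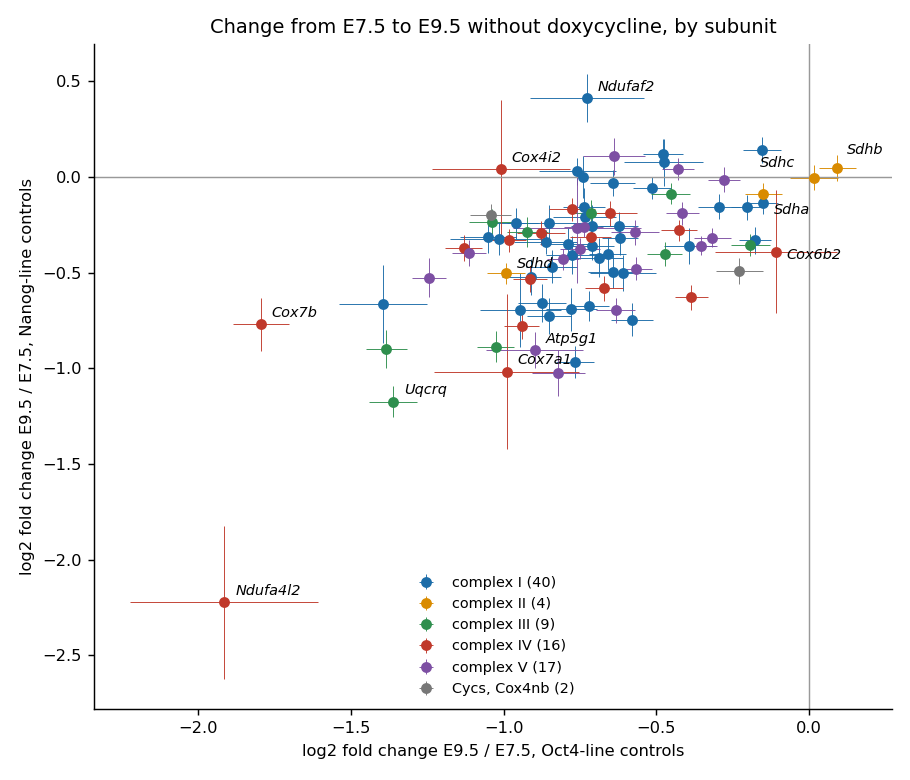
log2 fold change from E7.5 to E9.5 controls in the Oct4 line (horizontal axis) and in the Nanog line (vertical axis) for 88 members, with standard errors, coloured by complex. Most genes lie below 0 on both axes, complex II genes other than Sdhd lie near the origin, and Cox6a2, at 0 counts in every E7.5 control, is not drawn.

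Member genes are short: their median exonic length was 1237 nucleotides against 2735 over all protein-coding genes, and 39.8% of them were under 1 kilobase against 15.5%. All tested genes under that length had medians of -0.61 and -0.36 in the Oct4 and Nanog lines, against -0.73 and -0.33 for the members. With an adjustment for length, 63 members were lower in the Oct4 line and 39 in the Nanog line, with medians of -0.43 and -0.15. Of these, 32 were lower in both lines, 50.8% of the one list and 82.1% of the other, among them Uqcrq, Uqcr10, Cox7b, Cox7c, Ndufa4l2, Sdhd, Cycs, Atp5a1 and Atp5b. With 63 of 89 members lower in the Oct4 line, much of this overlap follows from the length of the lists. With that adjustment 2 members were higher in the Oct4 line and 7 in the Nanog line, where 71.4% and 62% of all genes were called in either direction.

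Markers of other cell types moved with stage as well. Summed visceral endoderm markers were at 893 to 3099 CPM in the E7.5 libraries and 88.2 to 129 at E9.5, and all 6 fell in both lines. Trophoblast markers were at 39.4 to 221 CPM and then 0.355 to 1.79, with 2 of 3 lower in both lines. Primitive erythroid markers were at 9.01 to 139 CPM at E7.5 and 1356 to 7682 at E9.5, with 5 of 6 higher and 1 lower in both lines. Summed markers of maternal decidua and blood were at 82.4 to 402 CPM at E7.5 and 23.2 to 147 at E9.5. The part of these shifts in the members' change was not tested.

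The isoform genes showed 1 gain with stage. Cox6a2, the heart and skeletal muscle form of subunit VIa (chromosome 7, 135348950 to 135349880, minus strand), had 0 counts in all 5 E7.5 controls and 64 and 39 counts over the E9.5 controls of the Oct4 and Nanog lines. Against a floor of 3 counts over the group, it was at least 77.0-fold higher in the Oct4 line and at least 6.26-fold higher in the Nanog line. In CPM the E9.5 controls lay at 2.23, 2.12 and 1.81 in the Oct4 line and 0.952 and 1.53 in the Nanog line. Per length this was 2.11% ± 0.314 (SD, n = 3) and 1.62% ± 0.466 (SD, n = 2) of the level of its ubiquitous paralog Cox6a1. Itgad lies on the opposite strand over the same span, and whether the counting used strand is not given in the sources used here. Summed cardiomyocyte markers were at 19.6 to 28.5 CPM at E7.5 and 373 to 644 at E9.5, with 7 of 7 higher in the Oct4 line and 6 of 7 in the Nanog line. Skeletal muscle markers were at 0.183 to 0.863 and then 19.8 to 43.1 CPM, and the 3 of 4 that could be tested rose. Of 11 E7.5 libraries, Nppa was at 0 in 5, Myog in 10 and Myf5 in 9. Their part in the rise of Cox6a2 was not tested. Of the other muscle forms, Cox7a1 fell in both lines, though in neither with the length adjustment, and Cox8b had 0 or 1 count in each library.

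Relative to the ubiquitous paralog and per length, the isoform genes stayed at a few percent or less in every group. The group means of Cox7a1 relative to Cox7a2 lay between 2.41% and 3.75%. Ndufa4l2 relative to Ndufa4 was at 0.781% ± 0.286 (SD, n = 3) in Oct4 E7.5 controls and 0.373% ± 0.0750 (SD, n = 3) in Oct4 E9.5 controls, and in the Nanog line at 1.04% ± 0.00608 (SD, n = 2) and 0.271% ± 0.0957 (SD, n = 2). Cox6b2 relative to Cox6b1 was at 1.75% ± 0.169 and 2.65% ± 0.328 (SD, n = 3 each) in the Oct4 controls of E7.5 and E9.5, and at 2.16% ± 0.0640 and 2.05% ± 0.480 (SD, n = 2 each) in those of the Nanog line. The mean ratio of Ndufa4l2 was lower at E9.5 in both lines, and Cox6b2 itself was not called between stages (-0.11 ± 0.20 and -0.39 ± 0.32). Among the 3 genes of the c subunit, Atp5g2 supplied 63.9% to 68.5% of the summed level per length in the group means, Atp5g3 28.7% to 32.4% and Atp5g1 2.81% to 3.82%. These ratios depend on the exon lengths used. Over the controls of both lines, Cox7a1 averaged 3.20% of Cox7a2 at E7.5 and 2.64% at E9.5 per length, against 1.54% and 1.27% as a ratio of counts with no length correction. For Ndufa4l2 and Ndufa4 the values were 0.912% and 0.322% per length and 1.78% and 0.628% without. Atp5g2 was at 203% and 217% of Atp5g3 per length and at 60.2% and 64.4% without, so that their order turned, and Atp5g1 at E7.5 was at 11.9% per length and 26.8% without.

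**Figure D3:**
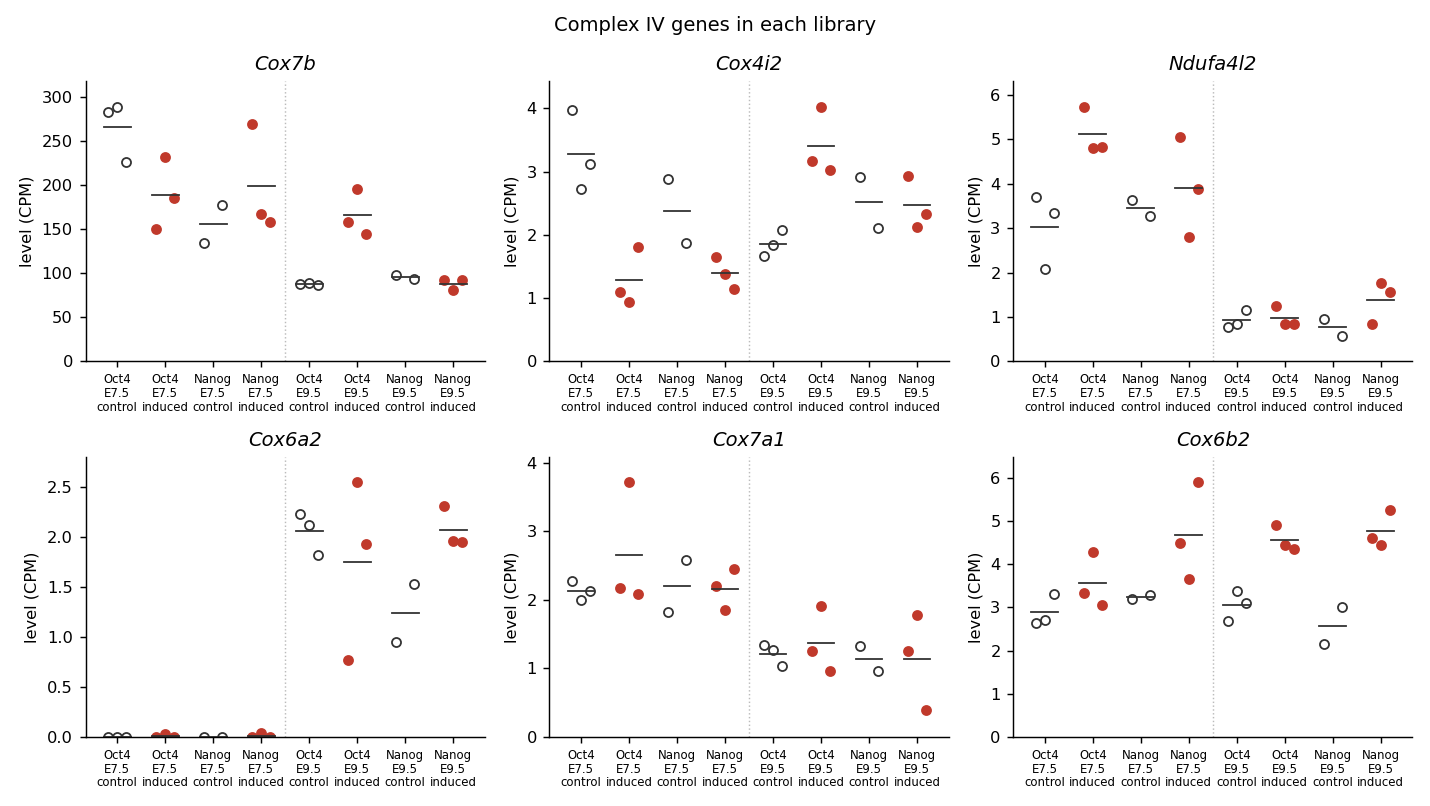
Level of Cox7b and 5 isoform genes of complex IV in each of the 22 libraries (vertical axis, CPM, own scale in each panel), with open circles for control and filled circles for induced pools and bars for group means. Cox4i2 is lower in the induced than in the control pools of the Oct4 line at E7.5 and higher at E9.5, and Cox6a2 is at or near 0 in every E7.5 library.

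Oct4 induction at E7.5 lowered 1 of 88 members tested (1.14%) and raised 0, where 6.17% of all genes were called, 2.25% higher and 3.91% lower. The gene was Cox4i2, the isoform of subunit IV used in lung and under low oxygen (chromosome 2, 152579909 to 152590773, plus strand). Its controls were at 3.98, 2.73 and 3.12 CPM and the induced pools at 1.1, 0.936 and 1.81. All induced pools lay below all controls, with a fold change of -1.34 ± 0.27 (adjusted p = 0.0208). The call was lost without control 1 (-1.20, adjusted p = 0.0907) and without control 3 (-1.37, adjusted p = 0.0723). Relative to Cox4i1 per length, Cox4i2 was at 1.44% ± 0.185 in controls and 0.574% ± 0.240 in induced pools (SD, n = 3 each), while Cox4i1 itself was at 208, 183 and 192 CPM in controls and 177, 227 and 188 in induced pools. Ndufa4l2 was at 3.7, 2.07 and 3.33 CPM in controls and 5.74, 4.79 and 4.82 in induced pools, without overlap (0.80 ± 0.22, adjusted p = 0.0696). The pools of this comparison share numbers, but the labels do not say that a number pairs them, and the main test used no pairing. With a replicate block by number, Ndufa4l2 was called (0.82, adjusted p = 0.0389) beside Cox4i2 (-1.35, adjusted p = 0.0173), so that 2 members passed in place of 1. The median of all members was 0.10 against 0.02 for all genes, and -0.03 without induced pool 2.

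In the same embryos the core subunits were not called: their log2 fold changes lay between 0.0046 ± 0.09 for Ndufs1 and 0.22 ± 0.12 for Cyc1. The 13 mitochondrially encoded genes and the 76 tested genes of the mitochondrial ribosome gave 0 calls each by edgeR, with 4 of the latter at an unadjusted p under 0.05. Markers of other cell types moved with this induction. Summed primitive erythroid markers were at 80.9 to 139 CPM in controls and 9.01 to 15.2 in induced pools, with 5 of 6 lower, and markers of organogenesis at 13.2 to 21.8 and then 1.22 to 1.93 CPM, with 3 of 4 lower. Epiblast and streak markers, which include Pou5f1 itself, were at 422 to 462 and then 923 to 1033 CPM, with 4 of 4 higher. Markers of maternal decidua and blood overlapped, at 109 to 244 and then 186 to 258 CPM. Their part in the members' values was not tested. Among regulators of the chain, Polg, the mitochondrial DNA polymerase, was lower (-0.31 ± 0.08, adjusted p = 0.0463).

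Oct4 induction at E9.5 changed 5 of 88 members, 3 higher and 2 lower, a share of 5.68% where 9.29% of all genes were called, 4.69% higher and 4.61% lower. The largest change was in Cox7b, a small subunit of complex IV. Its controls lay at 88.4, 89.2 and 86.8 CPM and the induced pools at 158, 195 and 145. The induced pools were all far above the controls, which lay within a narrow range, and the fold change was 0.89 ± 0.12 (adjusted p = 0.0122). Its size held when each control was left out in turn (0.88, 0.91 and 0.88) but the adjusted p then rose to 0.0623, 0.0536 and 0.0683. DESeq2 called Cox7b alone among the members (0.90, adjusted p = 3.53e-21), as did 1 model over all groups. Ndufaf3, an assembly factor of complex I, was at 5.24, 6.14 and 6.86 CPM in controls and 7.69, 9.75 and 10.1 in induced pools (0.57 ± 0.17, adjusted p = 0.043). Atp5sl, not an established subunit, was at 16.6, 17.2 and 18 in controls and 22, 21.6 and 23.7 in induced pools (0.37 ± 0.10, adjusted p = 0.0175). The 2 genes lower were Atp5c1, the gamma subunit of the complex V stalk, at 217, 196 and 195 CPM in controls and 188, 183 and 174 in induced pools (-0.16 ± 0.05, adjusted p = 0.0309), and Cycs, at 119.9, 124 and 128 in controls and 114, 107 and 115 in induced pools (-0.15 ± 0.05, adjusted p = 0.0482). In all 5 the groups did not overlap, which was read in the libraries that gave the calls and adds no support to them. Without control 2 no member was called by edgeR, without induced pool 5 there was 1, and without induced pool 3 or 4 there were 2. Of all genes, 4.41%, 5.14%, 5.24% and 6.55% were called in these fits, in that order. With total counts as the scale 3 were higher and 1 lower, 75.0% higher in place of 60.0%. With the length adjustment 2 were higher and 5 lower.

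The median of all members was 0.0042 in this comparison, and the members called were spread over complexes I, IV and V and Cycs. Cox4i2 lay above its controls, at 3.17, 4.03 and 3.02 CPM against 1.67, 1.83 and 2.07, without overlap but short of the threshold (0.83 ± 0.27, adjusted p = 0.0565). Its level relative to Cox4i1 was 0.964% ± 0.0727 in controls and 1.67% ± 0.225 in induced pools (SD, n = 3 each). Cox6b2 was at 2.68, 3.39 and 3.11 CPM in controls and 4.9, 4.45 and 4.35 in induced pools. Of the mitochondrially encoded genes 6 of 13 were lower, by 0.11 to 0.18 on the log2 scale, and Cs, the citrate synthase of the TCA cycle, was lower (-0.19 ± 0.04). Summed primitive erythroid markers were at 4479 to 5756 CPM in controls and 6313 to 7682 in induced pools, with 2 of 6 higher. Markers of organogenesis were at 273 to 287 and then 316 to 375 CPM, with 2 of 4 higher. Markers of maternal decidua and blood were at 23.2 to 45.4 and then 121 to 147 CPM. Epiblast and streak markers, which include Pou5f1 itself, were at 6.13 to 17.7 and then 287 to 318 CPM, with 1 of the 2 tested higher. Their part in the members' changes was not tested.

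Nanog induction at E7.5 raised 5 of 88 members and lowered 0, a share of 5.68% where 7.78% of all genes were called, 2.96% higher and 4.82% lower. Ndufa7, an accessory subunit of complex I (chromosome 17, 33961536 to 33975261, plus strand), was at 57.1 and 57.4 CPM in controls and 89.8, 74.8 and 89.3 in induced pools (0.61 ± 0.11, adjusted p = 0.0112). Cox7c of complex IV was at 156 and 142 in controls and 195, 196 and 201 in induced pools (0.46 ± 0.09, adjusted p = 0.0151). In both genes the 3 induced pools lay above the controls. Cox8a, another small subunit of complex IV, was at 136 and 134 CPM in controls and 164, 176 and 195 in induced pools (0.45 ± 0.10, adjusted p = 0.0279). Atp5l, a small subunit of complex V, was at 97.1 and 103 in controls and 129.5, 123 and 143 in induced pools (0.44 ± 0.10, adjusted p = 0.025). Ndufb7 of complex I was at 44.8 and 43.8 and, in induced pools, 53, 59.7 and 68.3 (0.49 ± 0.13, adjusted p = 0.0487). All induced pools were above both controls for each of these 5, in the libraries that gave the calls, so this adds no support to them. The 5 calls rest on 2 controls: by edgeR no member was called without control 2 or without control 3, 8 were without induced pool 1 and 3 without induced pool 3. Measured against the Oct4 E7.5 controls, none of these 5 was called and 8 other members were lower, where 23.7% of all genes were called.

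Most log2 fold changes in this comparison were above 0, including those of genes that were not called. Of the 88, 74 had a log2 fold change above 0, with a median of 0.18, and 27 had an unadjusted p under 0.05. By complex the medians were 0.20, 0.02, 0.21, 0.28 and 0.09 for I to V. All tested genes under 1 kilobase had a median of 0.16. The induced libraries here were among those with few counts in the shortest gene models and the controls among those with many. After adjusting for length 4 members were called, 3 of them the same genes, where 7.07% of all genes were called. The members' median was then 0.07 and 17 had an unadjusted p under 0.05. Measured against the Oct4 E7.5 controls the median was -0.07, and 51 members changed sign. Summed visceral endoderm markers were lower in the induced pools, at 893 to 1249 CPM against 2118 to 2352 in controls, with 4 of 6 called. Summed trophoblast markers were at 39.4 to 93.8 CPM in controls and reached 173 to 221 in the pools with induction, with 1 of 3 higher, primitive erythroid markers at 11.6 to 17.3 against 71.7 to 110, with 3 of 6 lower, and markers of organogenesis at 2.07 to 4.07 against 28.5 to 29.3, with the 3 tested all lower. Epiblast and streak markers were at 718 to 883 against 425 to 449 CPM, with 1 of 4 higher. Markers of maternal decidua and blood overlapped, at 82.4 to 402 against 340 to 351 CPM. The part of these markers in the members' values was not tested. Of the mitochondrially encoded genes 10 of 13 were higher, with a median of 1.01, among them mt-Co2 (1.23 ± 0.22) and mt-Atp8 (1.15 ± 0.18), while Polg was lower (-0.52 ± 0.12, adjusted p = 0.0307).

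**Figure D4:**
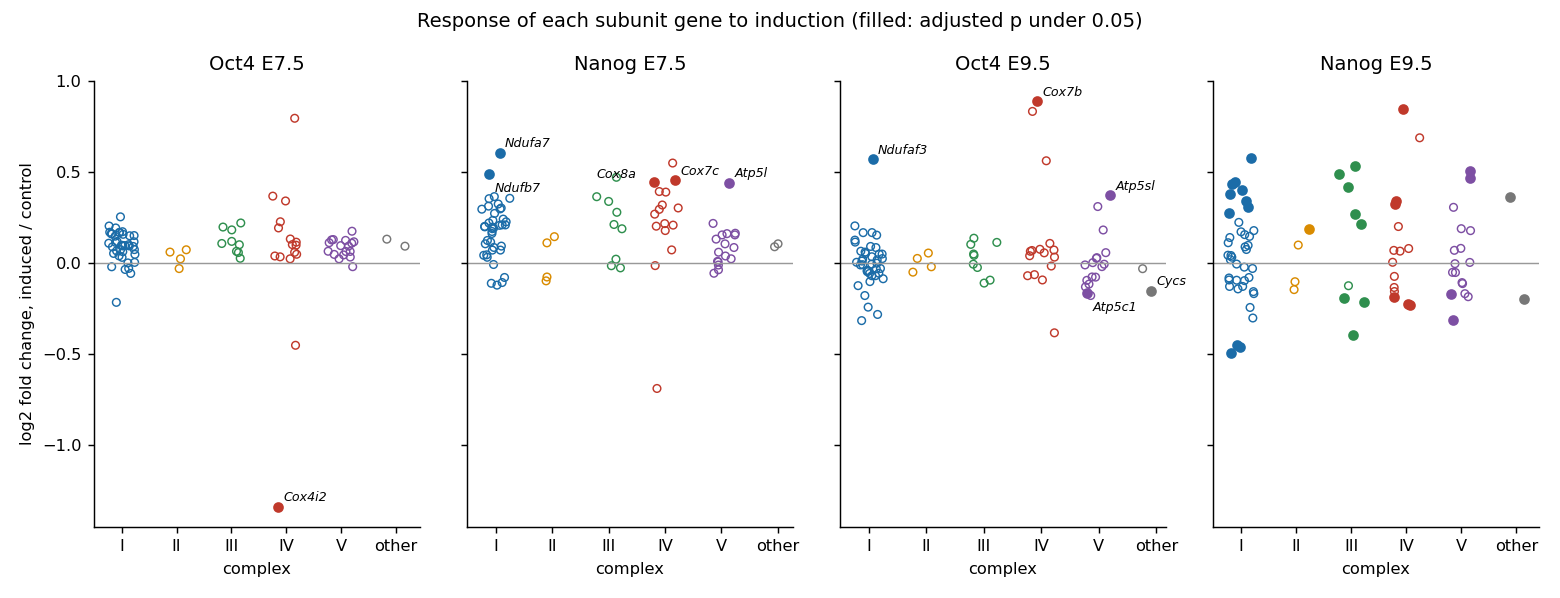
log2 fold change of every tested member on induction (vertical axis), by complex (horizontal axis), in the 4 comparisons of induced with control pools. Filled points passed an adjusted p of 0.05: 1 member after Oct4 at E7.5, 5 after Nanog at E7.5, 5 after Oct4 at E9.5 and 32 after Nanog at E9.5.

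Nanog induction at E9.5 gave the most calls, 32 of 87 members, with 20 higher and 12 lower. That is 36.8%, where 28.4% of all genes were called, 15.4% higher and 13% lower. With total counts as the scale the split was 22 higher and 6 lower, 78.6% higher in place of 62.5%, and with the length adjustment 14 were higher and 19 lower. In complex I 8 of 40 members rose and 3 fell, in complex III 5 of 9 rose and 3 fell, in complex IV 3 rose and 3 fell, in complex V 2 rose and 2 fell, and in complex II 1 of 4 rose. Cox4nb rose and Cycs fell. The median over all members was 0.03. Within complex III the small subunits went both ways: Uqcrq, Uqcr10 and Uqcr11 rose, and Uqcrb and Uqcrh fell. Of its electron carriers, Cyc1 rose (0.22 ± 0.07, adjusted p = 0.0314) and Uqcrfs1 was not called (-0.12 ± 0.07, adjusted p = 0.174).

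Among the genes that rose, Ndufa7 was at 38.3 and 36.5 CPM in controls and 58.4, 57.3 and 56.1 in induced pools (0.58 ± 0.08, adjusted p = 0.000125). Uqcrq was at 29.2 and 31.7 in controls and 44.2, 50.4 and 40.4 in induced pools (0.53 ± 0.10, adjusted p = 0.00112), and Uqcr10 at 29.1 and 35.9 in controls and 47.3, 48.8 and 43.9 in induced pools (0.49 ± 0.10, adjusted p = 0.00217). In complex V, Atp5d was at 72.3 and 77.3 CPM in controls and 105, 111 and 103 in induced pools (0.47 ± 0.07, adjusted p = 0.000233). Both controls of each of these genes lay below all 3 induced pools. Atp5g1, which with Atp5g2 and Atp5g3 encodes the same mature c subunit of the proton-driven ring, was at 57.1 and 53.4 CPM in controls and 76.4, 90.6 and 73.2 in induced pools (0.50 ± 0.09, adjusted p = 0.000742). Per length it supplied 2.81% ± 0.200 (SD, n = 2) of the 3 genes' total in controls and 3.65% ± 0.223 (SD, n = 3) in induced pools. Cox6b2, the testis form of subunit VIb, was at 2.16 and 3 CPM in controls and 4.61, 4.44 and 5.25 in induced pools (0.85 ± 0.27, adjusted p = 0.0268), or 2.05% ± 0.480 (SD, n = 2) and 3.70% ± 0.511 (SD, n = 3) of Cox6b1 per length. Cox7c changed by 0.32 ± 0.07 (adjusted p = 0.002) and Sdhc, at 82.2 and 84.3 CPM in controls and 96.2, 100.3 and 95.4 in induced pools, by 0.19 ± 0.07 (adjusted p = 0.0435). Of the core subunits, Ndufv1 (0.40 ± 0.08), Uqcrc1 (0.27 ± 0.07) and Cyc1 rose, and Cox5a (-0.19 ± 0.07) and Cycs (-0.20 ± 0.07) fell. With an adjustment for GC content Uqcrc1 (-0.06), Cyc1 (-0.15) and Cycs (0.04) turned direction.

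Among the genes that fell were 2 assembly factors of complex I. Ndufaf2 was at 24.4 and 29.2 CPM in controls and 17, 18.6 and 22.7 in induced pools (-0.50 ± 0.13, adjusted p = 0.0103), and Ndufaf4 at 65 and 66.6 in controls and 48.6, 45.3 and 53.4 in induced pools (-0.46 ± 0.08, adjusted p = 0.00097). Ndufs4, an accessory subunit (chromosome 13, 115078003 to 115178302, minus strand), was at 66.7 and 67.9 in controls and 56.1, 47.4 and 48.6 in induced pools (-0.45 ± 0.08, adjusted p = 0.00117). Uqcrb was at 93.5 and 87.5 in controls and 75, 65.5 and 71.7 in induced pools (-0.39 ± 0.08, adjusted p = 0.00144). In all 4 genes the 3 induced pools lay below both controls. Atp5j, coupling factor 6 of complex V, was at 144 and 139.6 CPM in controls and 125, 108 and 119 in induced pools (-0.31 ± 0.07, adjusted p = 0.00399). The groups did not overlap in 31 of the 32 genes called, the exception being Ndufs8. This was read in the libraries that gave the calls and adds no support to them. When each library was left out in turn, 11 genes were called every time, Ndufa7, Ndufs4, Ndufaf4, Ndufv1, Uqcrq, Uqcr11, Uqcrb, Cox7c, Atp5d, Atp5g1 and Cox4nb. The number called was 12 without control 2 and 17 without control 3.

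The direction of these changes went with base composition. The genes that rose had a median exon GC content of 55.2%, those that fell 45.1% and those not called 50.5%. Across the 87 members, which are not independent replicates, the Spearman correlation of the log2 fold change with GC content was 0.66, and it was -0.12 after an adjustment for GC content. The adjustment takes out each library's trend with GC content over all genes, so a fall of this correlation was built in. The 2 Nanog E9.5 control libraries stood apart: weighted by counts, their mean exon GC content was 48.3% and 48.4%, against 48.7% to 49.3% in the other 20. With the adjustment 15 members were called, 8 higher and 7 lower, where 8.23% of all genes were called in place of 28.4%. Of the 15, 11 had been called before: Ndufa7, Uqcrq, Uqcr10, Atp5g1, Cox7c, Sdhc and Cox4nb on the higher side, and Ndufs4, Ndufaf2, Atp5j and Cox5a on the lower. Atp5d, Ndufv1, Uqcrb and Ndufaf4 were no longer among them. Beside the core subunits named above, Atp5f1 (0.07), Cox6a1 (-0.23) and Ndufa13 (-0.17) turned direction, and 28 of the 87 members changed sign in all. Measured against the Oct4 E9.5 controls, 1 member was called, Ndufs5, and none of the 32, where 2.9% of all genes were called. Summed primitive erythroid markers were at 1356 to 1848 CPM in the induced pools and 4702 to 6242 in the Nanog E9.5 controls, with 6 of 6 lower. Markers of maternal decidua and blood were at 56.5 to 64.6 CPM in the induced pools and 23.5 and 27.2 in those controls. The part of both marker lists in the members' changes was not tested.

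**Figure D5:**
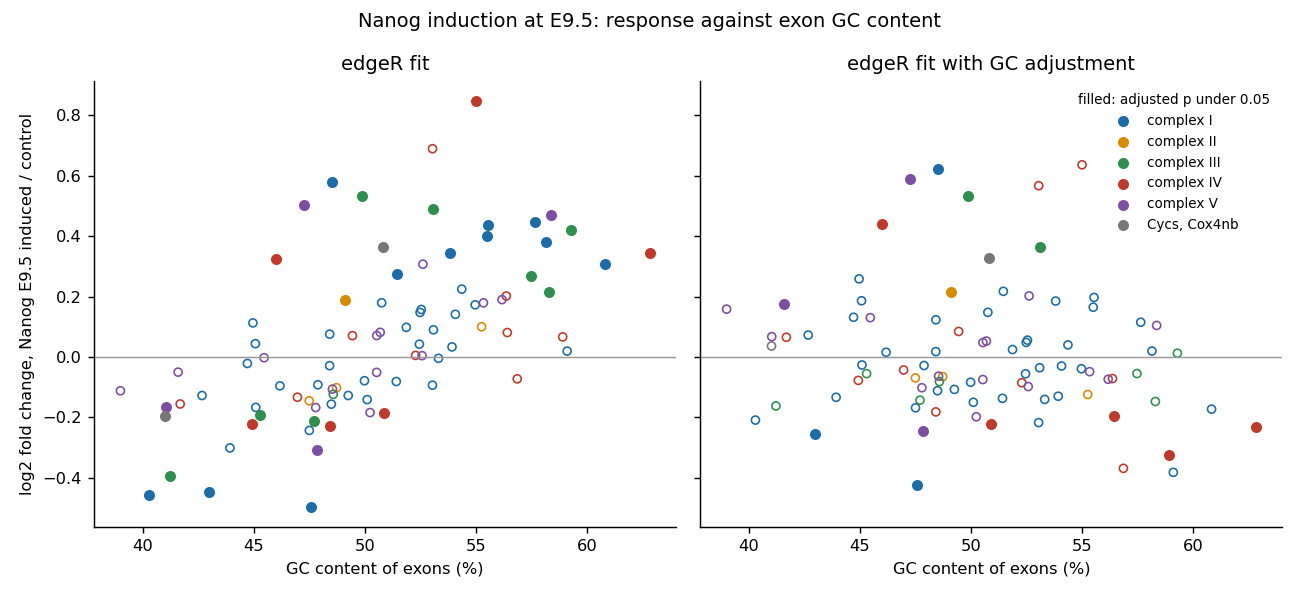
log2 fold change on Nanog induction at E9.5 (vertical axis) against exon GC content in percent (horizontal axis) for the 87 members, coloured by complex, with filled points at an adjusted p under 0.05. Without adjustment (left) the genes that rose have the higher GC content (median 55.2% against 45.1% for those that fell), and with the GC adjustment (right) 15 members are filled in place of 32.

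Around the chain, all 13 mitochondrially encoded genes were lower after Nanog induction at E9.5, with a median of -0.36. Among regulators Esrra, an orphan nuclear receptor of mitochondrial genes, was higher (0.97 ± 0.15, adjusted p = 0.000251), as were Polrmt (0.44 ± 0.10) and Polg (0.24 ± 0.07). Tfam, the packaging and transcription factor of mitochondrial DNA (-0.22 ± 0.07), and the GABP genes Gabpa (-0.23 ± 0.07) and Gabpb1 (-0.21 ± 0.07) were lower. Of the mitochondrial ribosomal protein genes 13 of 76 were higher and 6 lower. All these values come from the fit without a GC adjustment, which was not given for these lists. In that fit 15.4% of all genes were higher and 13% lower. The mitochondrially encoded subunits took 2.20% to 2.41% of counts in the induced pools and 2.79% and 2.85% in the Nanog E9.5 controls. In the Oct4 E9.5 controls they took 2.35% to 2.41%. Whether the induction or the control libraries account for the difference was not tested. These lists were described without a test of the list.

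Between the stages the same lists gave larger counts, and over all genes 37.1% were lower in the Oct4 line and 32% in the Nanog line. None of the values of these lists was adjusted for length. Of the 76 mitochondrial ribosomal protein genes 66 fell in the Oct4 line (median -0.60) and 53 in the Nanog line (-0.34), where 4 rose. These medians lay near those given above for all tested genes under 1 kilobase. The mitochondrially encoded genes fell in 13 of 13 and 11 of 13 cases, with medians of -1.20 and -0.33. TCA cycle and pyruvate dehydrogenase genes fell in 13 of 16 and 9 of 16 cases, and Cs rose in both lines (0.26 ± 0.05 and 0.22 ± 0.05). Ppargc1a, a coactivator of mitochondrial biogenesis, rose by 3.27 ± 0.28 and 3.71 ± 0.46, while Esrra fell (-1.49 ± 0.10 and -1.60 ± 0.14) and Polg fell (-2.02 ± 0.06 and -2.12 ± 0.07). The copper chaperone of complex IV, Cox17, fell by 1.20 ± 0.08 and 0.92 ± 0.10 on the log2 scale.

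Whether the responses differed between the lines or the stages was tested as an interaction, given below as the difference of 2 log2 fold changes. At E7.5 the Nanog response minus the Oct4 response gave 0 calls in 88 members by edgeR, with 4 at an unadjusted p under 0.05 and 0 by DESeq2, where 0.204% of all genes were called, 0.0659% higher and 0.138% lower. At E9.5 it gave 13 of 89 (14.6%, where 13.5% of all genes were called, 7.92% higher and 5.57% lower), 8 higher and 5 lower. With total counts as the scale these were 10 and 3, or 76.9% higher in place of 61.5%. In 1 model over all groups 0 were called, by DESeq2 7, and with the GC adjustment 6, of which 5 were among the 13: Ndufa7, Uqcrq, Cox7b, Cox7c and Cox4nb. Of all genes, 1.43%, 9.48% and 5.14% were called in these fits. Among the 13 members called in the main fit, Cox7b differed most. Cox7b rose after Oct4 (0.89 ± 0.12) and not after Nanog (-0.16 ± 0.07, adjusted p = 0.123), a difference of -1.05 ± 0.14 (adjusted p = 0.000948). Atp5g1 differed by 0.63 ± 0.17 (adjusted p = 0.0277) and Ndufs8, a core iron-sulfur subunit, by 0.54 ± 0.18 (adjusted p = 0.0496). With the GC adjustment neither was called, Atp5g1 at 0.71 (adjusted p = 0.0712) and Ndufs8 at 0.28 (adjusted p = 0.384).

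The E9.5 response minus the E7.5 response to Oct4 was called for 2 of 89 members, Cox4i2 and Cox7b, where 6.69% of all genes were called, 4.84% higher and 1.85% lower. Cox4i2 differed by 2.18 ± 0.38 (adjusted p = 0.00204): its induced pools lay below the controls at E7.5 and above them at E9.5. Cox7b differed by 1.35 ± 0.24 (adjusted p = 0.00441), with responses of -0.45 ± 0.17 at E7.5 and 0.89 ± 0.12 at E9.5. Both kept their call in 9 of 9 alternative fits. For the Nanog response 11 of 89 members (12.4%, where 12.8% of all genes were called, 8.02% higher and 4.79% lower) were lower at E9.5 than at E7.5 and 0 higher, or 5 lower and 2 higher (28.6%) with total counts as the scale and 8 lower and 2 higher with the length adjustment. The largest were Ndufs4 (-0.78 ± 0.12, adjusted p = 0.00122), Ndufaf2 (-0.74 ± 0.20, adjusted p = 0.0307) and Ndufab1, the mitochondrial acyl carrier protein (-0.61 ± 0.16, adjusted p = 0.0244). Ndufs4 showed 0.33 ± 0.09 at E7.5 and -0.45 ± 0.08 at E9.5 in the Nanog line. With the GC adjustment 13 members were lower and 0 higher, 8 of them among the 11, and 21 members changed sign. Across the 89 members the Spearman correlation of this stage difference with GC content was 0.56, and -0.04 with that adjustment, a fall that the adjustment builds in.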

How the data were processed

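RNA of 22 pools of whole embryos was sequenced on a GAII or a HiSeq 2500, per the labels' protocols, which do not say which library ran on which. The authors deposited expected counts per gene; the submitters' processing notes name cutadapt, RSEM 1.17, Picard, limma and build NCBIM37. Between 12.8% and 21.4% of a library's values were not whole, since reads that match several genes are shared out, and all were rounded. CPM and per-length levels were computed here. Of 37680 gene IDs 37309 matched the annotation of Ensembl release 65. Among the members 41 had counts that were not whole in some library, and 27 overlap another gene model, which matters where strand was ignored. Near-identical copies make these values uncertain.

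Tests used edgeR 4.0.16 in R 4.3.3 (TMM scaling, its default filter on low counts, robust quasi-likelihood F test, two-sided), fitted on all genes, with the groups of a comparison only. The second Ndufb8 model, Cox7b2, Cox8b and Cox8c were below the filter everywhere, Cox6a2 at E7.5, Ndufa4l2 in both E9.5 inductions and Cox7a1 in the Nanog one. Alternatives were median-ratio size factors, total counts, libraries without mitochondrial genes, no filter, DESeq2 1.42.0, limma-voom (limma 3.58.1), 1 model over all groups, each library left out, a replicate block and the Oct4 line's controls. Adjustments for GC content and length (lowess, span 0.3) were chosen after seeing the data. Scripts were tested on simulated data.

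The labels do not say that replicate numbers pair pools. In the Oct4 E7.5 groups, deviations of same-numbered pools correlated at 0.34, 0.37 and 0.13, which does not settle it. Pairs of libraries within a group differed by more than sampling noise (chi-square over degrees of freedom 1.60 to 67.1 in 20 pairs). Floors cover counting error only. The members and lists were chosen with earlier results of these data known. Named were the paralog pairs, 14 core subunits (1 is not reported here), the members called (the 5 largest per direction and the lowest p per complex where there were more), the extremes per length, those below the filter and the 3 largest interactions. Other names in the text were chosen after their values were seen.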

Additional observations from a re-analysis of the deposited data

Results flagged for a closer look

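The responses to induction differed between the lines or between the stages for 26 results, each by an interaction test in edgeR; leaving out single libraries was not run for these.

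At E9.5 the Nanog response exceeded the Oct4 response for 8 members. The difference of log2 fold changes was 0.63 ± 0.17 for Atp5g1, 0.54 ± 0.18 for Ndufs8, 0.42 ± 0.13 for Uqcrq and 0.41 ± 0.09 for Atp5d. It was 0.41 ± 0.10 for Ndufa7, 0.39 ± 0.08 for Cox4nb, 0.37 ± 0.12 for Uqcr10 and 0.28 ± 0.07 for Cox7c. The Nanog response was below the Oct4 response for 5: -1.05 ± 0.14 for Cox7b, -0.45 ± 0.12 for Ndufs4, -0.45 ± 0.14 for Ndufa1, -0.29 ± 0.09 for Uqcrb and -0.24 ± 0.08 for Atp5j. Adjusted p lay between 0.000948 (Cox7b) and 0.0496 (Ndufs8). Of these 13, 5 (Ndufa7, Uqcrq, Cox7b, Cox7c and Cox4nb) were also called with the GC adjustment, and 0 in 1 model over all groups.

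The Oct4 response was higher at E9.5 than at E7.5 for Cox4i2, by 2.18 ± 0.38, and for Cox7b, by 1.35 ± 0.24. The Nanog response was lower at E9.5 than at E7.5 for 11 members. In complex I the difference was -0.78 ± 0.12 for Ndufs4, -0.74 ± 0.20 for Ndufaf2, -0.61 ± 0.16 for Ndufab1 and -0.44 ± 0.11 for Ndufs3. In complex III it was -0.56 ± 0.10 for Uqcrh and -0.35 ± 0.11 for Uqcrfs1. In complex IV it was -0.54 ± 0.13 for Cox7a2, -0.53 ± 0.15 for Cox6c and -0.47 ± 0.11 for Cox5a, and in complex V -0.56 ± 0.11 for Atp5l and -0.41 ± 0.11 for Atp5j. Adjusted p lay between 0.00122 (Ndufs4) and 0.0443 (Uqcrfs1). Of these 11, 8 were also called with the GC adjustment.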

How the results depend on the processing

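The counts of members called between stages stayed within 1.5 times under every alternative run, at 65 to 86 calls against 86 in the Oct4 line and 46 to 69 against 69 in the Nanog line, but with the length adjustment the members lower went from 85 to 63 and from 67 to 39. Oct4 at E7.5 called 1 member, and 2 without the filter, by DESeq2, in 1 model over all groups, with the length adjustment, with the replicate block and with the replicate block and GC adjustment together, and 0 to 2 when a library was left out. Nanog at E7.5 called 5, against 11 without the filter, 11 in 1 model over all groups, 10 with the GC adjustment and 8 with the Oct4 line's controls, and 0 to 8 when a library was left out. Oct4 at E9.5 called 5, against 1 by DESeq2, 1 in 1 model over all groups, 3 with the GC adjustment, and 0 to 5 when a library was left out. Nanog at E9.5 called 32, against 19 by DESeq2, 8 in 1 model over all groups, 15 with the GC adjustment, 1 with the Oct4 line's controls, and 12 to 29 when a library was left out. The line difference called 0 at E7.5, against 1 in 1 model over all groups, and 13 at E9.5, against 7 by DESeq2, 0 in 1 model over all groups and 6 with the GC adjustment. The stage difference of the Nanog response called 11, against 7 with total counts, where 12.8% and 14.3% of all genes were called. For the line difference at E9.5 the share of all genes was 13.5%. It was 9.48% by DESeq2, 1.43% in 1 model over all groups and 5.14% with the GC adjustment. The share of all genes called also moved. For Nanog at E9.5 it was 28.4% in the main fit, 18.1% by DESeq2 and 12.2% in 1 model over all groups. It was 8.23% with the GC adjustment and 2.9% with the Oct4 line's controls. For Nanog at E7.5 it was 7.78%, and 23.7% with the Oct4 line's controls. For Oct4 at E9.5 it was 9.29%, against 5.12% by DESeq2 and 1.94% in 1 model over all groups. The GC and length adjustments were chosen after seeing the data, and the cause of these shifts was not tested. Some medians of the members moved by more than the spread between replicates. For Oct4 at E7.5 the median of 0.097 went to -0.035 without induced pool 2. For Nanog at E7.5, 0.18 went to 0.073 with the length adjustment and -0.069 with the Oct4 line's controls. For Oct4 at E9.5, 0.0042 went to -0.016 with the GC and -0.027 with the length adjustment. For Nanog at E9.5, 0.033 went to -0.039 and -0.021 with these, 0.080 without control 3 and 0.084 with the Oct4 line's controls. Between stages, -0.73 in the Oct4 line went to -0.53 with total counts, -0.80 without the filter and -0.43 with the length adjustment, and -0.33 in the Nanog line to -0.27 with total counts and -0.15 with the length adjustment.

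Some single genes reversed. For Nanog at E9.5 with the GC adjustment these were Atp5f1 (0.067), Cox6a1 (-0.23), Cyc1 (-0.15), Cycs (0.036), Ndufa13 (-0.17) and Uqcrc1 (-0.055), and with the Oct4 line's controls Cycs (0.11), Ndufs7 (-0.021) and Uqcrh (0.050). For Nanog at E7.5 with those controls it was Atp5l (-0.059). Between stages with the length adjustment, Cox4i1 (0.079), Cox6a1 (0.11) and Uqcrc1 (0.072) reversed in the Oct4 line and Cox4i1 (0.050), Cox6b1 (0.052), Ndufa4 (0.077) and Uqcrfs1 (0.037) in the Nanog line. With total counts Ndufv1 (0.022), Sdha (0.048) and Uqcrc1 (0.0055) reversed in the Oct4 line.

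With the replicate block, Nanog at E9.5 called 25 members, 22 of them among the 32, and the stage comparisons called 84 and 66. Those pools share a number but did not deviate together (correlations of -0.04 and -0.03 for Nanog at E9.5). Exchanging controls was not run for the line difference at E9.5. Depth limits the isoform genes: levels of Cox8b, Cox8c and Cox7b2 lay at or near 1 count.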
